A study of Mus musculus with 6 samples.

Results

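The 8 genes described here act in triglyceride and cholesteryl ester breakdown and were followed in the apical part of the mouse lower first molar, the region where the tooth root forms. They are Lpl, Lipc, Lipg, Lipm, Lipa, Pnpla2 and Lipe, which encode lipases, and Gpihbp1, which encodes the carrier of lipoprotein lipase and is not itself a lipase. They were picked by gene symbol, as 8 of the 22287 genes in the deposited count table. The set was drawn up because Lipm and Lpl stood among the genes with the largest increases in the mutants, so the difference between mutants and controls in these genes is given as a description, without a p-value.

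RNA was sequenced from C57BL/6 pups at postnatal day 7.5, and every pup had received tamoxifen at postnatal day 3.5. The mutants were Gli1-CreER;Arid1a fl/fl (3 libraries, replicates 3, 4 and 5), and the controls were Arid1a fl/fl without the recombinase (3 libraries, replicates 2, 3 and 5). Both groups therefore carry floxed alleles of Arid1a, a subunit gene of the BAF chromatin remodelling complex. CreER is a tamoxifen-inducible recombinase, expressed here under Gli1, a gene active in Hedgehog-responsive cells. Recombination is therefore confined to cells that express Gli1 while tamoxifen acts, and their progeny keep the recombined alleles. RNA was taken later and from the whole dissected region. Because the controls lack CreER, its own effects and the loss of Arid1a cannot be told apart. The labels do not say whether a library came from 1 animal or from a pool. The p-values below set the difference between the groups against the spread between these libraries. Spread between animals cannot be read from them.

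The libraries held 20453247 to 24255352 estimated counts. Levels are given in CPM, counts scaled to the library size after TMM normalization, which corrects for differences in composition. Arid1a stood at 120, 134 and 130 CPM in mutant replicates 3, 4 and 5, against 210, 202 and 204 CPM in control replicates 2, 3 and 5. The summed level of 10 dental mesenchyme and odontoblast markers was 56094 to 66594 CPM in the mutants and 62652 to 65780 CPM in the controls, with all 10 measured. Most of this was the collagen gene Col1a1 (34079 to 40507 CPM in the mutants, 38179 to 39937 CPM in the controls). Of the 10, Dmp1, Msx1 and Pax9 were higher and 0 lower at an unadjusted p under 0.05 in edgeR, where 7.13% of all genes tested were higher. At an adjusted p under 0.05 edgeR called 0, and DESeq2 called 2 higher, against 2.11% of its genes. The summed level of 10 dental epithelium markers was lower in each mutant library, at 68404 to 113754 CPM, than in each control library, at 179167 to 278415 CPM, and most of this was the enamel matrix gene Amelx (37117 to 62078 CPM in the mutants, 109351 to 209047 CPM in the controls). The summed level of 9 measured erythroid markers was 2367 to 5511 CPM in the mutants and 1423 to 1948 CPM in the controls. The part of these shifts in the levels below was not tested. In bulk tissue, fewer cells of a type and less RNA per cell cannot be told apart.

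Lipases release fatty acids from stored or circulating fat. Lipoprotein lipase, encoded by Lpl, acts on triglyceride-rich lipoproteins at the capillary wall, where GPIHBP1 on endothelial cells holds it, and hepatic lipase (Lipc) and endothelial lipase (Lipg) belong to the same family. Lysosomal acid lipase (Lipa) cleaves cholesteryl esters and triglycerides taken up into lysosomes, and Lipm is a gene of the same acid lipase family, which in human skin is expressed in differentiating keratinocytes. Adipose triglyceride lipase (Pnpla2) and hormone-sensitive lipase (Lipe) break down the fat of lipid droplets inside cells, in sequence.

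The acid lipase genes Lipm and Lipa both lie on chromosome 19, and the windows around their annotated starts are shown because these related genes differed in how far their levels were apart between the groups. Each window runs from 250 bases before to 50 bases after the start, from RefSeq on GRCm38.p6, the assembly also called mm10, and is written 5′ to 3′ on the strand of the gene. The Lipm window is chr19:34100693-34100992 on the plus strand and the Lipa window is chr19:34527425-34527724 on the minus strand. Capitals mark matches on either strand to any of 6 motifs, namely the TATA box spelled TATAAA, the CCAAT box spelled by its name, the GC box spelled GGGCGG, the GLI motif GACCACCCA, the PPAR direct repeat, a pair of AGGTCA sites with 1 base between them, and the E-box spelled CACGTG.
Lipm: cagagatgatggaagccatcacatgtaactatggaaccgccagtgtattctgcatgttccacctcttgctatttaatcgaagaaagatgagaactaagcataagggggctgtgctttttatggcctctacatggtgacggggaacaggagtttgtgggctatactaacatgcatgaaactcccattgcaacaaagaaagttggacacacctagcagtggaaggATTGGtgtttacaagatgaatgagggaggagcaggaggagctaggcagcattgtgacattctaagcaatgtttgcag
Lipa: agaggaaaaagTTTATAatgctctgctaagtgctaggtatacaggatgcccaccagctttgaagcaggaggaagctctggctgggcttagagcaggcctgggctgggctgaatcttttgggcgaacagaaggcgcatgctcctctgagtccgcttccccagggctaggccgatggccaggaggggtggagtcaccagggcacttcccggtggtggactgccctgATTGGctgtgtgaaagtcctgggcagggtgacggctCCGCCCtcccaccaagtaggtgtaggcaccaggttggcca

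The Lipm window held 1 match, a CCAAT box on the opposite strand, and none to the other 5 motifs. The Lipa window held 3, with 1 TATA box, 1 CCAAT box and 1 GC box, none of which overlap. All 3 were likewise on the opposite strand. The TATA box lay near the upstream end of the window, far from the annotated start. Among 32851 windows of the same length, 37.4% held the CCAAT box, 13.6% the TATA box, 35.7% the GC box, 7.15% the E-box, 0.253% the GLI motif and 0.0396% the PPAR repeat. The Lipm window was 45.3% G and C with 3 CpG dinucleotides, and 23.3% of windows had fewer CpGs. The Lipa window was 59.3% G and C with 7 CpG dinucleotides, and the median over all windows was 52.7% and 7. Windows were matched for 5 of the 8 genes. The letters describe these windows and do not show binding.

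Lipm stood far higher in the mutants. Its expected counts were 384.3, 269 and 265 in mutant replicates 3, 4 and 5, against 43.6, 71 and 44.4 in control replicates 2, 3 and 5. As levels these were 14.8, 11.7 and 11.6 CPM in the mutants and 2.14, 3.32 and 2.39 CPM in the controls. The groups did not overlap, and the lowest mutant library was 3.5 times the highest control library. The mean was 12.7 ± 1.84 CPM in the mutants and 2.62 ± 0.623 CPM in the controls (SD, n = 3 each), a log2 fold change of 2.27 (SE 0.20), the 14th highest of 17305 genes tested. Without any single library the log2 fold change lay between 2.15 and 2.49.

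Lipm (ENSMUSG00000056078.6) is protein-coding and lies on the plus strand of chromosome 19 from 34100933 to 34122687 in GENCODE M21 on mm10. Its last 1219 bases overlap Ankrd22 on the opposite strand, and the sources used here do not say whether counting kept strand. Ankrd22 had expected counts of 5.75, 2 and 6.998 in mutant replicates 3, 4 and 5, and of 3.40, 2 and 15.6 in control replicates 2, 3 and 5, far below those of Lipm in the mutants. Of 10 keratinocyte markers 9 were measured, with a summed level of 47.5 to 55.6 CPM in the mutants and 53.6 to 126.7 CPM in the controls. The top of the control range came from control replicate 5 alone, and control replicates 2 and 3 were at 53.6 and 62.2 CPM. The part of these cells in the level of Lipm was not tested.

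Lipa, the lysosomal member, showed a small offset. It stood at 24.3, 26.6 and 28.7 CPM in mutant replicates 3, 4 and 5, against 22.5, 24.2 and 21.8 CPM in control replicates 2, 3 and 5. The ranges did not overlap, but the lowest mutant library lay only just above the highest control library. The log2 fold change was 0.22 (SE 0.09), or 0.42 with scaling to library totals, and Lipa was not called. Lipa (ENSMUSG00000024781.16) lies on the minus strand of chromosome 19 from 34492318 to 34527474, on the same chromosome as Lipm.

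Lpl was the second gene with a clear offset between the groups. Its expected counts were 712, 819 and 792 in mutant replicates 3, 4 and 5, against 362, 324 and 171 in control replicates 2, 3 and 5. In CPM it stood at 27.5, 35.5 and 34.8 in the mutants and at 17.6, 15.2 and 9.31 in the controls. All 3 mutant libraries lay above all 3 controls, and control replicate 5 was the lowest. The mean was 32.6 ± 4.42 CPM in the mutants and 14.0 ± 4.27 CPM in the controls (SD, n = 3 each), and the log2 fold change was 1.21 (SE 0.22), the 139th highest of the 17305 genes tested. The SDs were close, but relative to the mean the spread was wider in the controls, with a coefficient of variation of 13.6% in the mutants and 30.4% in the controls. Lpl (ENSMUSG00000015568.16) lies on the plus strand of chromosome 8 from 68880491 to 68907448.

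A gene is written here as called where edgeR's quasi-likelihood test gave an adjusted p under 0.05 over all genes tested. For the 8 genes, which were picked from this contrast, calls are only a description and support nothing. Fits without 1 library rest on fewer libraries and called fewer genes over the whole table. A call lost in such a fit therefore need not mean that the value depends on that library. Arid1a, the targeted gene, was itself called in 4 of the 6 such fits, with a log2 fold change of -0.71 to -0.64. Lipm was called in each of the 6 fits that left out 1 library. Lpl was called in 1 of the 6, the fit without mutant replicate 3. In the 5 others, each of which left out control replicate 2, 3 or 5 or mutant replicate 4 or 5, Lpl was no longer called, with a log2 fold change that lay between 0.999 and 1.41 over the 6 fits. Lipm and Lpl also ordered the mutant libraries differently. Replicate 3 was the highest mutant library for Lipm and the lowest for Lpl.

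Lpl is known to be made by adipocytes, muscle and macrophages, so markers of these cells are given beside it. All 10 macrophage markers were measured, with a summed level of 456 to 596 CPM in the mutants and 328 to 443 CPM in the controls. Of these 1 was called higher and 0 lower, where 0.659% of all genes tested were called higher. It was Cd68, a macrophage lysosomal glycoprotein gene, at 18.7 ± 1.31 CPM in the mutants and 12.4 ± 1.33 CPM in the controls (SD, n = 3 each, edgeR adjusted p = 0.0498). That value lies just under the threshold. DESeq2 called 3 of the 10 higher, against 2.11% of its genes, and limma-voom called 0, against 0.48%. All 3 mutant libraries lay above all 3 controls in the summed macrophage level, as they did for Lpl, and its part in the level of Lpl was not tested. Of 10 adipocyte markers 5 were measured, with a summed level of 11.8 to 14.97 CPM in the mutants and 12.4 to 13.1 CPM in the controls. Most of this sum was 1 gene, Cebpa, at 8.97 to 10.7 CPM in the mutants and 8.17 to 9.13 CPM in the controls. Adipoq and Cidec, which mark fat cells, were not among the measured ones. Plin1, which coats adipocyte lipid droplets, was near 0, at 0.0868 to 0.116 CPM in the mutants and 0.0468 to 0.163 CPM in the controls. The 9 measured skeletal muscle markers summed to 12.8 to 23.0 CPM in the mutants and 14.3 to 44.6 CPM in the controls. Neither list was higher in all mutant libraries than in all controls.

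**Figure D1:**
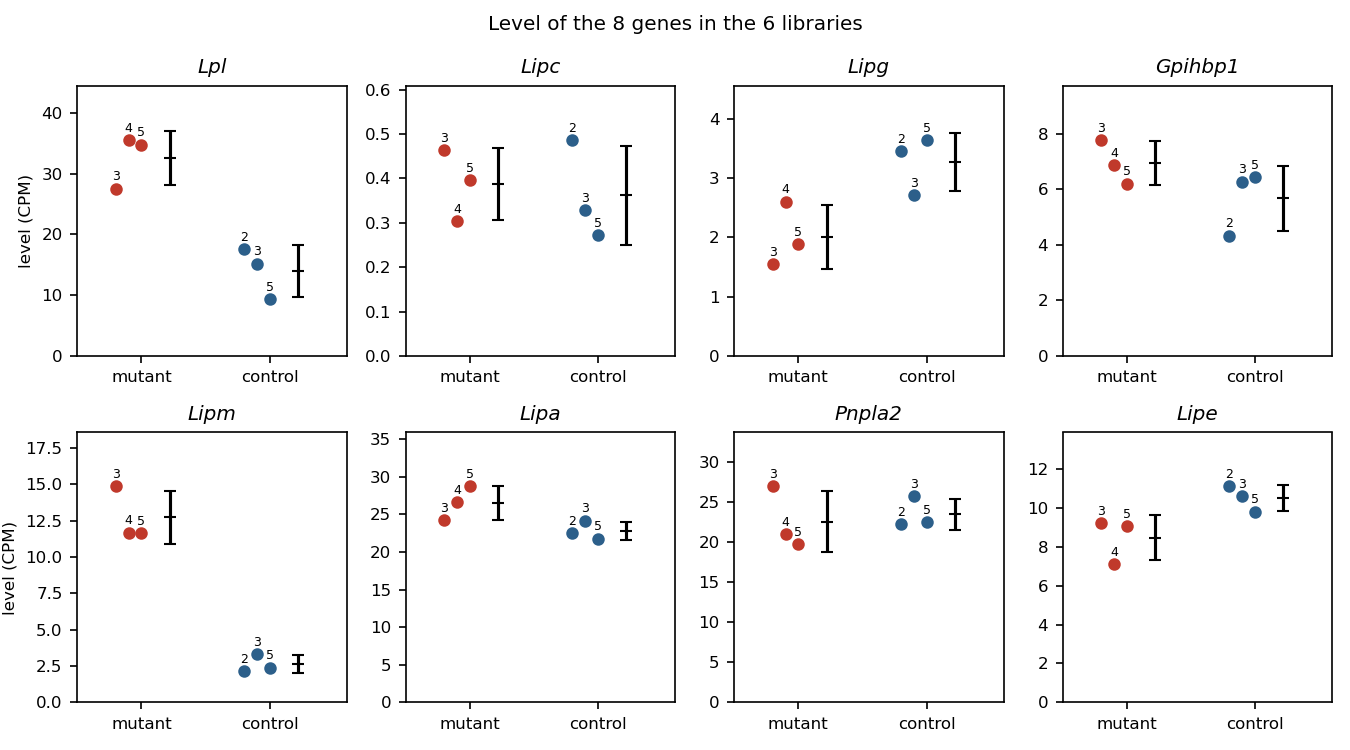
Level in CPM (vertical axis, from 0, scale differs by panel) of each of the 8 genes in the 3 mutant and the 3 control libraries. Points are libraries labelled by replicate number, and the bar is the mean with 1 SD. Lipm and Lpl show a wide gap between the groups, while Lipc, Gpihbp1 and Pnpla2 overlap.

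The other vascular lipases were scarce. Lipg, the endothelial lipase gene, had expected counts of 40, 60 and 43 in mutant replicates 3, 4 and 5, against 71, 58 and 67 in control replicates 2, 3 and 5. In CPM these were 1.55, 2.603 and 1.89 in the mutants and 3.45, 2.72 and 3.65 in the controls. The groups did not overlap, with a log2 fold change of -0.70 (SE 0.25), and Lipg was not called. The direction was thus opposite to that of Lpl. Lipc, the hepatic lipase gene, had expected counts of 12, 7 and 9 in the mutants and 10, 7 and 5 in the controls, and did not pass the filter on low counts. Lipc was therefore not tested, and its groups overlapped. Lipc (ENSMUSG00000032207.10) lies on chromosome 9 from 70798128 to 70952226.

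Gpihbp1, the endothelial carrier of lipoprotein lipase, stood at 7.77, 6.85 and 6.19 CPM in mutant replicates 3, 4 and 5, against 4.33, 6.27 and 6.42 CPM in control replicates 2, 3 and 5. The groups overlapped, control replicate 2 was the lowest, and the log2 fold change was 0.29 (SE 0.19), or 0.13 without control replicate 2 and 0.50 with scaling to library totals. Gpihbp1 was not called. The 10 endothelial markers, all measured, summed to 382 to 417 CPM in the mutants and 325 to 383 CPM in the controls, with control replicate 2 again the lowest. Gpihbp1 (ENSMUSG00000022579.10) lies on chromosome 15 from 75596628 to 75599481.

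Neither intracellular lipase gene was called. Pnpla2, the adipose triglyceride lipase gene, stood at 26.9, 20.95 and 19.8 CPM in mutant replicates 3, 4 and 5, against 22.2, 25.7 and 22.5 CPM in control replicates 2, 3 and 5. The groups overlapped and the log2 fold change was -0.057 (SE 0.13), which turned to 0.14 with scaling to library totals. Lipe, the hormone-sensitive lipase gene, stood at 9.20, 7.11 and 9.04 CPM in the mutants and at 11.1, 10.6 and 9.80 CPM in the controls. Its groups did not overlap, the log2 fold change was -0.31 (SE 0.14), and it was not called. The Lipe value was -0.11 with scaling to library totals and -0.20 without mutant replicate 4. Lipe lies wholly within 4732471J01Rik, an antisense gene that stood at 0.607 to 0.734 CPM in the mutants and 1.31 to 1.58 CPM in the controls, so reads of these genes may not be separated. Pnpla2 (ENSMUSG00000025509.15) and Lipe (ENSMUSG00000003123.15) lie on chromosome 7, from 141455198 to 141460743 and from 25379527 to 25398710.

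Counted together, 7 of the 8 genes passed the filter on low counts. Of these, 2 were called higher and 0 lower, where 0.659% of all 17305 genes tested were called higher (114 genes) and 1.2% lower (208 genes). Scaling to library totals turned that split round, to 411 genes higher and 109 lower. At an unadjusted p under 0.05 in edgeR 3 of the 7 were higher and 1 lower, where 7.13% of all genes tested were higher and 7.83% lower. DESeq2 called 2 higher and 0 lower, against 2.11% and 2.89% of its 17073 genes, and limma-voom called 2 higher and 0 lower, against 0.48% and 1.08% of all genes tested. The libraries of the groups did not overlap for 5 of the 7, where 21.3% of all genes tested did not overlap. Because the set was drawn up from this same contrast, nothing is read from these shares.

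**Figure D2:**
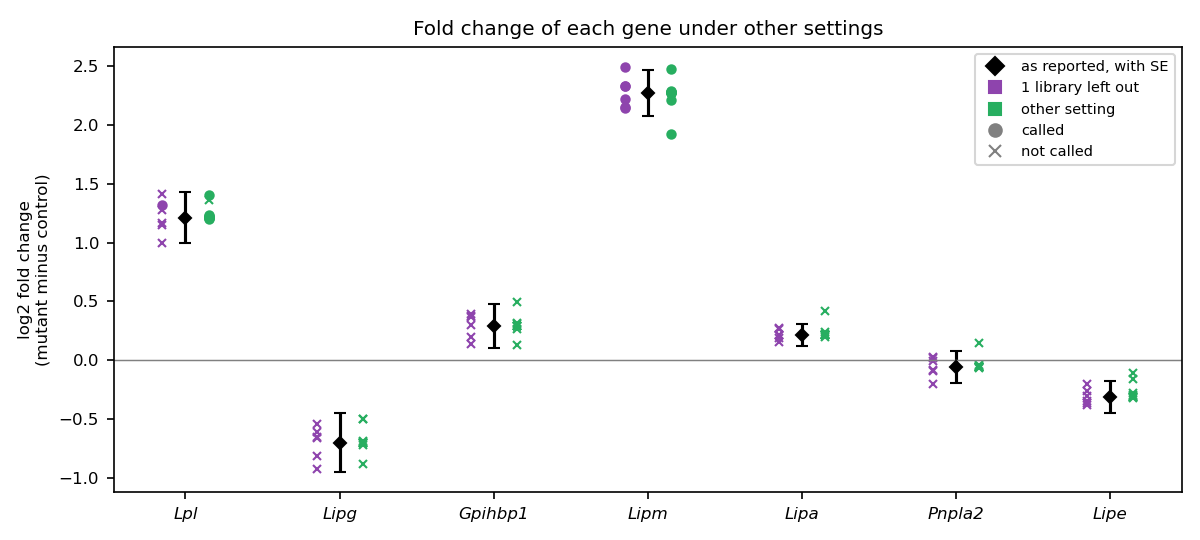
Log2 fold change (mutant minus control, vertical axis) of the 7 tested genes as reported (diamond, with SE), with 1 library left out (purple) and under the other settings (green). Dots were called and crosses were not. Lipm stayed between 1.92 and 2.49 and Lpl between 0.999 and 1.41, and the calls are a description, since both genes were picked from this contrast.

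To compare levels between genes, CPM was divided by the length of the merged exons in kilobases (CPM per kb). Pnpla2 led in both groups, at 7.47 ± 1.27 CPM per kb in the mutants and 7.77 ± 0.642 in the controls (SD, n = 3 each). Lipa came second, at 3.91 ± 0.328 CPM per kb in the mutants and 3.37 ± 0.18 in the controls. Below them the order differed between the groups. In the mutants the third was Lipm at 3.64 ± 0.527 CPM per kb, followed by Lpl at 3.11 ± 0.422, Gpihbp1 at 2.72 ± 0.31, Lipe at 1.44 ± 0.197, Lipg at 0.427 ± 0.114 and Lipc at 0.180 ± 0.0374. In the controls the order from the third place was Gpihbp1 at 2.22 ± 0.457 CPM per kb, Lipe at 1.78 ± 0.111, Lpl at 1.34 ± 0.407, Lipm at 0.751 ± 0.179, Lipg at 0.694 ± 0.104 and Lipc at 0.168 ± 0.0517.

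Neighbours in this order were not always apart. In the mutants the library ranges of Lipa and Lipm, of Lipm and Lpl, and of Lpl and Gpihbp1 overlapped. In the controls those of Gpihbp1 and Lipe, of Lipe and Lpl, of Lpl and Lipm, and of Lipm and Lipg overlapped. Lipm thus had a level near that of Lipg in the controls and near that of Lipa in the mutants. The merged exons of all annotated transcripts were used, which sum to 10478 bases for Lpl and 3489 for Lipm, so a gene with long transcripts that are not used in this tissue is placed too low.

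**Figure D3:**
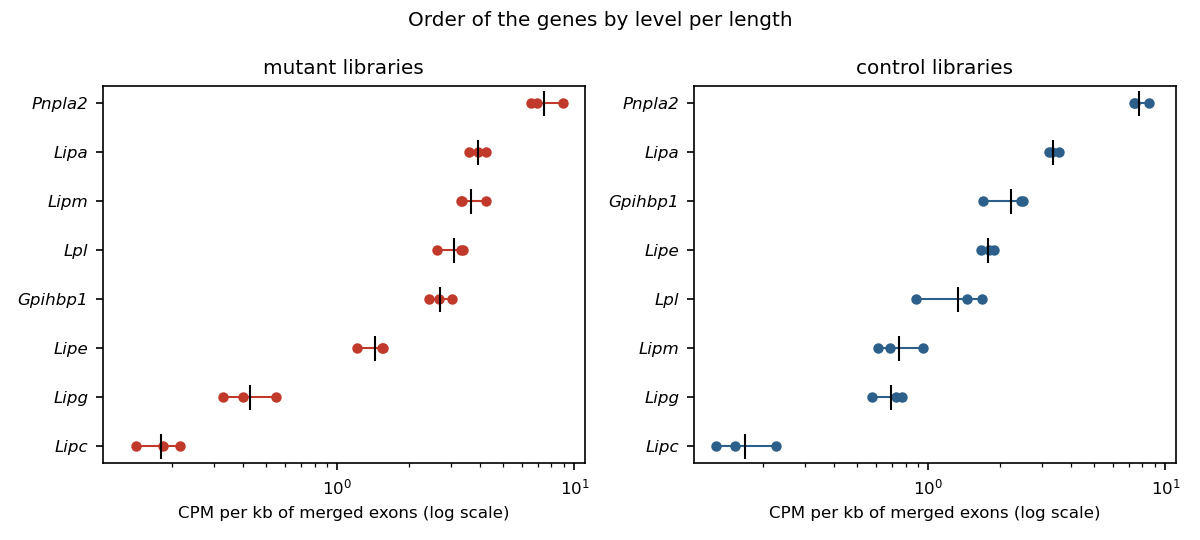
Level per length (CPM per kb of merged exons, log scale, horizontal axis) of the 8 genes, ordered by mean within the mutant (left) and the control (right) libraries. Points are libraries, lines their range and ticks the mean. Lipm is the third of the 8 in the mutants and the sixth in the controls.

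The genes beside Lipm on chromosome 19 include other acid lipase genes. Of the 5 genes on each side in the count table, 6 passed the filter. Of these 6, 1 was called higher and 0 lower by edgeR, where 0.659% of all genes tested were called higher and 1.2% lower. At an unadjusted p under 0.05 in edgeR 3 were higher and 0 lower, where 7.13% of all genes tested were higher and 7.83% lower. DESeq2 called 1 higher and 0 lower, against 2.11% and 2.89% of its genes. The riser was Stambpl1, a deubiquitinase gene whose start lies 91.3 kb beyond that of Lipm. It stood at 6.84, 6.90 and 6.01 CPM in mutant replicates 3, 4 and 5, against 3.94, 3.89 and 3.37 CPM in control replicates 2, 3 and 5 (log2 fold change 0.82, SE 0.15, edgeR adjusted p = 0.0418). The Stambpl1 groups did not overlap, but its call was lost in all 6 fits without a library, where the log2 fold change lay between 0.76 and 0.88 and the adjusted p reached 0.142.

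The next genes on that side were not called. Acta2, which encodes smooth muscle actin, stood at 60.7 ± 13.1 CPM in the mutants and 42.0 ± 6.94 CPM in the controls (log2 fold change 0.53, SE 0.18, edgeR adjusted p = 0.2003, SD, n = 3 each). Fas, a death receptor gene, stood at 2.36 ± 0.0362 CPM in the mutants and 1.40 ± 0.197 CPM in the controls (log2 fold change 0.75, SE 0.22, edgeR adjusted p = 0.145, SD, n = 3 each). The Fas groups did not overlap, while those of Acta2 did. On the other side Lipk, the nearest acid lipase gene with values in the count table, did not pass the filter. Its expected counts were 29, 10 and 9 in mutant replicates 3, 4 and 5, against 0, 6 and 0 in control replicates 2, 3 and 5. These few counts do not overlap between the groups. Lipo3, a further acid lipase gene, stood at 16.3 ± 2.39 CPM in the mutants and 15.8 ± 0.672 CPM in the controls and was not called (edgeR adjusted p = 0.909, SD, n = 3 each). Rnls and the pseudogene AC122846.1 had log2 fold changes of -0.031 and 0.0086.

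All 10 genes beside Lpl were tested, and 0 were called in either direction by edgeR, DESeq2 or limma-voom. At an unadjusted p under 0.05 in edgeR 1 was higher and 1 lower, where 7.13% of all genes tested were higher and 7.83% lower. The nearest were Ints10, a subunit gene of the Integrator complex (log2 fold change -0.12, SE 0.14), and Slc18a1, a vesicular monoamine transporter gene (log2 fold change 1.001, SE 0.53, edgeR adjusted p = 0.430). Slc18a1 had 3.43 ± 2.43 CPM in the mutants and 1.71 ± 0.808 CPM in the controls (SD, n = 3 each), and its SD in the mutants exceeded the difference of the means. Lzts1, the largest of the others, had a log2 fold change of 0.59 (SE 0.23, edgeR adjusted p = 0.282). The remaining 7, Psd3, Gm15991, Sh2d4a, Csgalnact1, Atp6v1b2, Zfp930 and Gm7684, lay between -0.37 and 0.36.

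**Figure D4:**
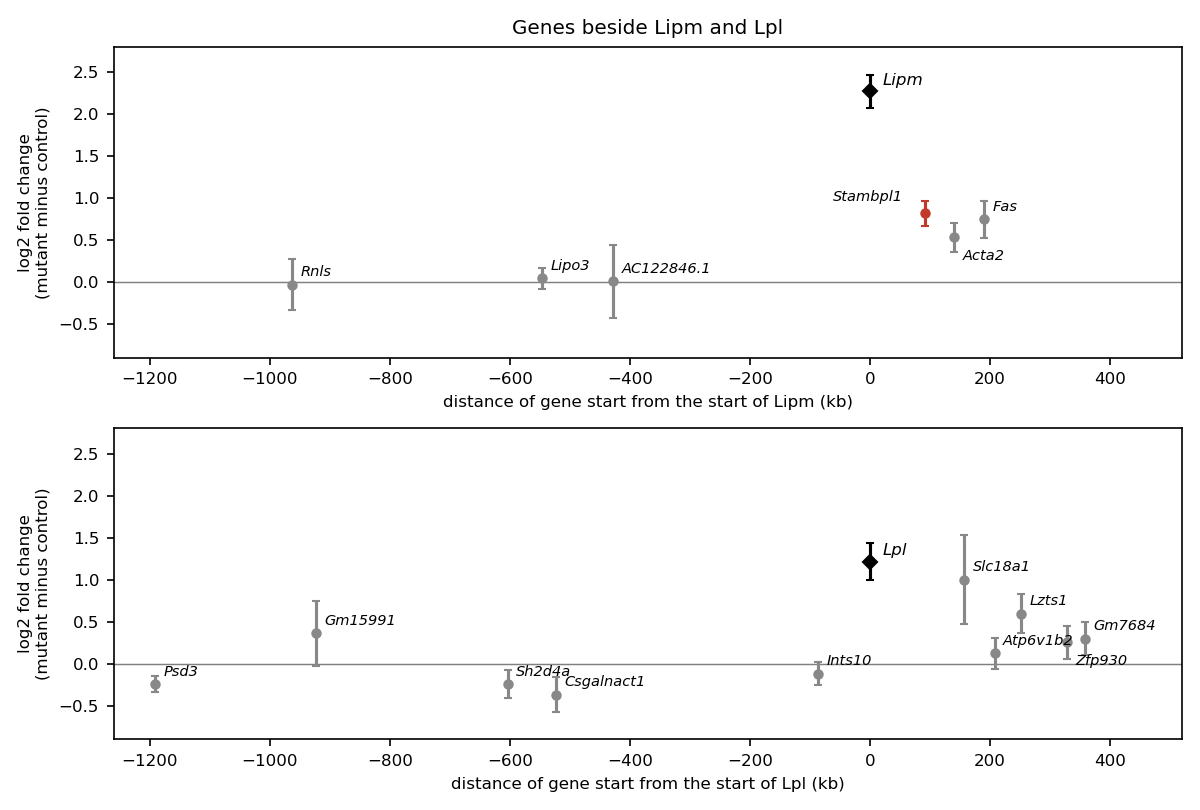
Log2 fold change with SE (vertical axis) of the tested genes among the 5 on each side of Lipm (top) and of Lpl (bottom), by the distance of their start in kb (horizontal axis). Diamonds are Lipm and Lpl, and Stambpl1 (red) was the gene called.

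Genes with the most similar profile were found by the root mean square difference of log2(CPM + 1), centred on each gene's mean over the 6 libraries, among 10826 genes whose mean reached 5 CPM, leaving out unnamed gene models and sex-linked genes. For Lipm they were Coch (0.35), Phox2a (0.37), Opcml (0.38), Spock1 (0.40) and Fst (0.42). For Lpl they included Opcml (0.18), Scn1a (0.19), Shox2 (0.20) and Dpep1 (0.21). The difference between Lipm and Lpl was 0.51, larger than for each of these, so neither gene is among the other's 5. Coch, which encodes an extracellular matrix protein, stood at 98.3 ± 8.77 CPM in the mutants and 36.0 ± 6.63 CPM in the controls (SD, n = 3 each). Opcml, a cell adhesion gene of the IgLON family, was on both lists, at 19.6 ± 2.69 CPM in the mutants and 6.18 ± 1.61 CPM in the controls (SD, n = 3 each). Shox2, a homeobox gene of jaw and limb mesenchyme, stood at 23.5 ± 3.80 CPM in the mutants and 13.3 ± 3.83 CPM in the controls (SD, n = 3 each). These genes were chosen for their likeness to genes picked from this contrast and carry no test.

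The other genes of these pathways are given by lists. Over 7 lists, 97 of 130 genes passed the filter, and 1 was called higher and 3 lower, which is 4.12% against 1.86% of all genes tested. DESeq2 called 1 list gene higher and 3 lower, where it called 2.11% of its 17073 genes higher and 2.89% lower. With scaling to library totals 2 list genes were higher and 1 lower, against 411 and 109 of all 17305 genes tested. No excess over all genes is therefore read from the edgeR share. Over all genes tested the median log2 fold change was 0.01.

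Partners of lipoprotein lipase include its maturation factors, the proteases and inhibitors that shut it off, its apolipoprotein cofactors and receptors of the lipoproteins it acts on. Of 18 tested, 1 rose and 1 fell and the others were not called, with a median log2 fold change of 0.02. Pcsk6, a proprotein convertase gene whose product can cleave and inactivate endothelial and lipoprotein lipase, rose. It stood at 33.7, 37.4 and 34.6 CPM in mutant replicates 3, 4 and 5, against 23.7, 22.7 and 23.7 CPM in control replicates 2, 3 and 5 (log2 fold change 0.59, SE 0.08, edgeR adjusted p = 0.0180). Vldlr, a receptor for triglyceride-rich lipoproteins, fell. It stood at 168, 177 and 161 CPM in the mutants, against 245, 244 and 254 CPM in the controls (log2 fold change -0.55, SE 0.07, edgeR adjusted p = 0.0180). For both genes the groups did not overlap. Both calls were lost in 5 of the 6 fits without a library and kept without mutant replicate 3, with log2 fold changes of 0.55 to 0.62 for Pcsk6 and -0.59 to -0.52 for Vldlr.

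Values of 2 direct regulators of lipoprotein lipase follow. Lmf1, which encodes a factor needed for its folding, stood at 14.98 ± 0.993 CPM in the mutants and 14.7 ± 1.12 CPM in the controls (SD, n = 3 each). Angptl4, which encodes an inhibitor, stood at 16.6 ± 3.08 CPM in the mutants and 15.2 ± 1.89 CPM in the controls (SD, n = 3 each). Neither was called, and both had groups that overlap. They are described for their role and were chosen after their values were seen. Sorl1, an endocytic receptor gene, had a log2 fold change of 0.22 (SE 0.09, edgeR adjusted p = 0.272).

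Genes of fatty acid uptake and activation showed 1 call among 15 tested, a faller (median log2 fold change -0.09). Slc27a3, an acyl-CoA synthetase gene of the fatty acid transport family, stood at 7.15, 6.42 and 6.63 CPM in mutant replicates 3, 4 and 5, against 10.2, 9.83 and 11.3 CPM in control replicates 2, 3 and 5 (log2 fold change -0.63, SE 0.12, edgeR adjusted p = 0.0452). The groups did not overlap, but the call was lost in all 6 fits without a library (log2 fold change -0.68 to -0.57), and limma-voom did not make it. With scaling to library totals Slc27a3 was at -0.43 and was not called (edgeR adjusted p = 0.0921), nor was it without a filter on low counts (edgeR adjusted p = 0.0545). Cd36, a fatty acid receptor gene found on macrophages, adipocytes and endothelium, stood at 10.3 ± 2.64 CPM in the mutants and 6.54 ± 1.14 CPM in the controls (SD, n = 3 each). The Cd36 groups did not overlap, but it was not called (log2 fold change 0.66, SE 0.21, edgeR adjusted p = 0.186). Acsl5 had a log2 fold change of 0.20 (edgeR adjusted p = 0.453).

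Among 15 lipid-sensing regulators, 1 fell and the others were not called, with a median log2 fold change of -0.14. The faller was Srebf2, the transcription factor gene that governs cholesterol synthesis and uptake, at 89.7, 86.0 and 85.1 CPM in mutant replicates 3, 4 and 5, against 120.5, 116.6 and 124.2 CPM in control replicates 2, 3 and 5 (log2 fold change -0.47, SE 0.07, edgeR adjusted p = 0.0227). The groups lay well apart, and the call was kept in 1 of the 6 fits without a library, that without mutant replicate 3 (log2 fold change -0.49 to -0.44 over the 6). With scaling to library totals Srebf2 was at -0.27 and was not called (edgeR adjusted p = 0.0810). Pparg, the nuclear receptor gene of fat cell differentiation and a known regulator of Lpl, stood at 1.89, 1.605 and 3.42 CPM in the mutants and 3.06, 2.72 and 2.88 CPM in the controls, with overlapping groups. It was not called. Pparg was chosen after its values were seen. Nr1h2 and Ppard, both nuclear receptor genes, each had a log2 fold change of -0.16 (edgeR adjusted p = 0.358 and 0.422).

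Lipid droplet genes, which act with Pnpla2 and Lipe, had 0 calls among 11 tested by edgeR, DESeq2 or limma-voom (median log2 fold change 0.13). At an unadjusted p under 0.05 in edgeR 2 were higher and 0 lower, where 7.13% of all genes tested were higher and 7.83% lower. Plin2, a droplet coat gene of many tissues, stood at 35.9 ± 3.81 CPM in the mutants and 28.8 ± 2.61 CPM in the controls (log2 fold change 0.32, SE 0.11, edgeR adjusted p = 0.204, SD, n = 3 each). The Plin2 groups did not overlap. The call on Plin2 depended on the scaling, since with library totals it was at 0.53 and was called higher (edgeR adjusted p = 0.0459). Mgll, which completes triglyceride breakdown, had a log2 fold change of 0.39 (SE 0.16, edgeR adjusted p = 0.299). G0s2, which encodes an inhibitor of the Pnpla2 product, stood at 19.4 ± 4.83 CPM in the mutants and 27.7 ± 7.36 CPM in the controls (log2 fold change -0.51, SE 0.23, edgeR adjusted p = 0.352, SD, n = 3 each). The SD of G0s2 in the controls was close to the difference of the means, that in the mutants was smaller, and the groups overlapped.

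The 3 remaining lists had 0 calls by edgeR, DESeq2 or limma-voom. Of 15 genes of lysosomal lipid handling, the partners of Lipa, 0 were higher and 1 lower at an unadjusted p under 0.05 in edgeR (median log2 fold change 0.00). Over all genes tested 7.13% were higher and 7.83% lower at that threshold. Abcg1, a sterol exporter gene, and Tfe3, a transcription factor gene of lysosome formation, had log2 fold changes of -0.17 and -0.12. Of 19 genes of fatty acid oxidation, 0 passed even without adjustment (median log2 fold change 0.01), and those with the smallest p were Pdk4 (0.34), Ucp3 (-0.47) and Ehhadh (-0.29). Of 20 other lipase genes 4 were tested, and 0 passed without adjustment (median log2 fold change 0.05). These were Lipo3 and the patatin-like phospholipase genes Pnpla6 (-0.12), Pnpla7 (0.11) and Pnpla8 (0.06).

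**Figure D5:**
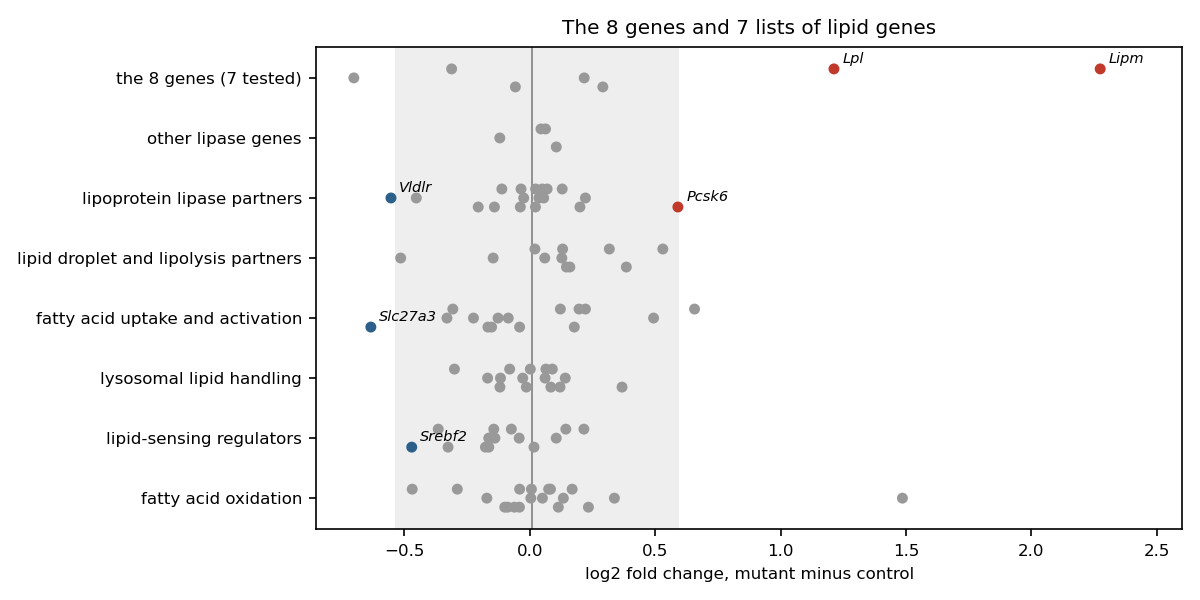
Log2 fold change (mutant minus control, horizontal axis) of the tested genes among the 8 and in 7 lists of lipid genes. Red points were called higher, blue lower and grey not called; the grey band spans the 5th to 95th percentile of all genes tested (-0.53 to 0.59) and the line is their median. Lipm (2.27) and Lpl (1.21) lie outside the band, and the called list genes, Pcsk6, Vldlr, Slc27a3 and Srebf2, lie near its edges.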

How the data were processed

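RNA of the dissected apical part of the mandibular first molar was read single-end with 75 cycles, per the labels' protocols. The submitters' processing notes name STAR 2.6.1d, Partek and mm10, without their roles. The authors deposited a table of expected counts per gene (53.8% whole within 0.001, gene sums of at least 10) and a table of normalized signal, in which each deposited value is the count plus 1 times 1 factor per library. Strand and annotation were not given in the sources used.

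Expected counts were rounded, filtered with filterByExpr (17305 genes kept), scaled by TMM and tested with the quasi-likelihood test of edgeR 4.0.16 (R 4.3.3). Adjusted p-values are Benjamini-Hochberg values over every gene tested. The SE was taken as the size of the log2 fold change over the root of its F statistic. Scripts were tested on simulated data. Motifs were chosen after the files were seen. The members, lists and rules were chosen with earlier results of these data known. Named genes were the members, the called genes of each list filled up to 3 by smallest p, the tested genes among the 5 on each side of Lipm and Lpl, and the 5 most similar profiles. Some of the genes this rule names are not reported here. Chi-square over degrees of freedom between libraries of a group was 24.5 to 45.0, far above counting noise. Alternatives used DESeq2 1.42.0 and limma 3.58.1, other scalings and filters, and each library left out.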

Additional observations from a re-analysis of the deposited data

How the results depend on the processing

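Over the 15 alternatives the log2 fold change was 1.92 to 2.49 for Lipm and 0.999 to 1.41 for Lpl. Both were picked from this contrast, so these ranges describe the processing and support nothing. Leaving out each library in turn gave 1 to 105 genes called higher and 10 to 138 called lower (114 and 208 with all libraries), 1 to 2 of the 8 genes called higher, and 0 to 1 list genes higher and 0 to 2 lower. Scaling to library totals moved the median over all genes to 0.21 (log2) and gave 411 higher and 109 lower calls, with 2 list genes higher and 1 lower; Lipa was then at 0.42, Pnpla2 at 0.14 and Lipe at -0.11. Signs under that scaling turned for Pnpla6 (0.082), Abcg1 (0.035), Tfe3 (0.084), Nr1h2 (0.040), Ppard (0.038), Rnls (0.19) and Ints10 (0.089). DESeq2 gave 360 higher and 493 lower calls. On log2(value + 1) of the normalized table Lipm was at 1.92, since the added 1 shrinks low genes.

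Libraries numbered 3 exist in both groups, as do those numbered 5, and they share only a number (correlation of deviations 0.20 and -0.15). With the replicate block 19 genes were higher and 71 lower, 1 of the 8 genes was called (Lipm), 0 list genes were called in either direction, Srebf2 (adjusted p = 0.217) and the other list genes called above included, Stambpl1 was not called (adjusted p = 0.290), and Lipe was at -0.16; Rnls turned to 0.17 and AC122846.1 to -0.13. Signs of uncalled genes near 0 also turned for AC122846.1 with limma-voom (-0.071) and with the normalized table (-0.034). With each library left out in turn, signs also turned for AC122846.1 (-0.57 to 0.265), Rnls (-0.273 to 0.17), Lipo3 (-0.076 to 0.131), Atp6v1b2 (-0.037 to 0.314) and Pnpla2 (-0.206 to 0.029), none of them called. The cause of these shifts was not tested. Lipg rests on 40 to 71 counts per library and Lipc on 5 to 12, which limits their precision.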
